A study of Mus musculus with 4 samples.

Results

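The solute carriers are the largest superfamily of membrane transporters in mammals. Of the 34745 genes in the deposited table, 377 carry an Slc symbol, and 194 of these were selected on their counts: a gene was kept if its reads summed to 40 or more over the 4 libraries. Another 172 Slc genes fell under this minimum, of which 103 had no count at all. The selection also set aside 11 Slc genes, 8 by name (Slc7a11, Slc7a5, Slc3a2, Slc40a1, Slc11a2, Slc48a1, Slc30a1 and Slc39a14) and 3 (Slc11a1, Slc25a17 and Slc17a5) because the deposited table places them in the KEGG pathways of the lysosome or the peroxisome. Apart from these 11, a gene was kept or dropped by its summed count alone, a value taken over both groups together. Just inside the minimum lay Slc25a47 with 40 counts, Slc6a13 with 42, and Slc13a2 and Slc17a8 with 44 each. Just outside lay Slc39a12 with 39, Slc35g2 with 32, and Slc9a2 and Slc7a15 with 30 each.

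A solute carrier moves its substrate across a membrane down a gradient, or against one by coupling to sodium, protons or an exchanged solute, without hydrolysing ATP itself. Plasma membrane members set which amino acids, sugars, carboxylates, ions, metals and vitamins a cell can take up or release, members of the inner mitochondrial membrane pass metabolites to the matrix, and members of the Golgi load sugars for glycosylation. In macrophages and osteoclasts they supply glucose and amino acids, export lactate, and move the bicarbonate, chloride and protons on which acid secretion onto bone depends. Not every gene with an Slc symbol is a transporter: Slc9a3r1 and Slc9a3r2 encode scaffold proteins, Slc4a1ap and Slc7a6os carry the symbol of a neighbouring or partner gene, and Slc2a4rg-ps and Slc39a1-ps are pseudogenes.

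RNA was sequenced from bone marrow-derived macrophages (BMMs) of 8-week-old wild-type male C57BL/6 mice, held without serum for 12 h and then cultured for 24 h in complete medium with RANKL (100 ng/mL), the cytokine that turns macrophages into osteoclasts. One group of 2 libraries also received dimethyl itaconate (DI), a membrane-permeable ester of the macrophage metabolite itaconate, at a dose that the labels give as 20 mM and the methods section as 20 μM (RANKL+DI). The other 2 libraries received DMSO (RANKL+vehicle). All 4 libraries thus share RANKL and the serum-free period, and nothing in the labels says whether the libraries of a group came from separate mice or cultures, so that p-values measure only the spread between these libraries, which may be technical. The libraries held 16085692 to 19403480 counts, and 3 counts corresponded to 0.160 to 0.180 CPM (counts scaled to a common library total).

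Slc2a1 imports glucose, Slc16a1 and Slc16a3 move lactate, and Slc13a3 imports succinate and related dicarboxylates. Their upstream sequences are shown because Slc2a1 and Slc16a3 rose with DI while Slc16a1 and Slc13a3 fell. The 250 bases before each RefSeq transcription start (assembly GRCm38.p6) are given 5′ to 3′ along the gene, with the letters ACGTG, the core of the hypoxia response element, in capitals wherever they occur on either strand. Where the capitals read CACGTG, the E-box, ACGTG stands on both strands. The windows are chr4:119108495-119108744 on the plus strand for Slc2a1, chr11:120948817-120949066 on the plus strand for Slc16a3, chr3:104638414-104638663 on the plus strand for Slc16a1 and chr2:165473198-165473447 on the minus strand for Slc13a3.
Slc2a1: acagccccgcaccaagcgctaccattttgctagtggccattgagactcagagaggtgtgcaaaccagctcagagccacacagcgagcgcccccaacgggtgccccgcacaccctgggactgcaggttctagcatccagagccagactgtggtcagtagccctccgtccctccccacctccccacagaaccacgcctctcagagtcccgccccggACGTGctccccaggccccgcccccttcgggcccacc
Slc16a3: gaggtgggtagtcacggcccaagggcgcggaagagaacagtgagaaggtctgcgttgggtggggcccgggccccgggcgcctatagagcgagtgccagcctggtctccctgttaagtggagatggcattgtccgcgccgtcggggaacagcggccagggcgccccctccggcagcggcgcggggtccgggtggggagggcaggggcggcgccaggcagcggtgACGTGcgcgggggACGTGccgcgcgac
Slc16a1: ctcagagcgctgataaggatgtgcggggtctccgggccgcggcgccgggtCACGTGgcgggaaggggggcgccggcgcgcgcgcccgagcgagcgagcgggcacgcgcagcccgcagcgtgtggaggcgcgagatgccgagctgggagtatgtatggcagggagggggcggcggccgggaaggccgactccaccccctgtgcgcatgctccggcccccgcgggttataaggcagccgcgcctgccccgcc
Slc13a3: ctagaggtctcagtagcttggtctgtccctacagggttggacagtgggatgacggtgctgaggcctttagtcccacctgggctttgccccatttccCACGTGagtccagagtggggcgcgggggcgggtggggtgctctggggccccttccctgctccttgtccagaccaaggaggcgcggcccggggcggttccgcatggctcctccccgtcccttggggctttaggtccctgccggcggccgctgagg

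In these windows ACGTG began 36 bases before the start of Slc2a1 and 27 and 14 bases before that of Slc16a3. CACGTG began 200 bases before the start of Slc16a1 and 154 bases before that of Slc13a3. RefSeq promoter windows, from 250 bases before to 50 bases after a start, were matched for 147 of the 194 solute carriers. ACGTG, searched on both strands, lay in a window of 32.7% of these genes and of 21.8% of all 27025 genes with a window. It was found for 6 of the 12 matched genes that rose with DI, 6 of the 15 that fell and 30.3% of the 119 that were tested and not called. CACGTG, which contains ACGTG, was found for 17.7% of the matched solute carriers and 8.09% of all genes, with 3 of 12 among those that rose and 5 of 15 among those that fell. A match describes the letters only and names no factor that binds there. The matched solute carriers had all passed the count minimum, while the 27025 genes were not selected on counts. The shares set side by side here and below thus come from unlike sets of genes.

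The other letters searched were the antioxidant response element core TGANNNNGC, the ATF4 composite element TGATGNAA, the AP-1 element TGANTCA and the interferon response element. TGANNNNGC was found for 9 of 12 solute carriers that rose (75.0%), 11 of 15 that fell (73.3%), 54.6% of those not called and 45% of all genes. TGATGNAA lay in a window of 2.72% of the matched solute carriers against 4.51% of all genes, TGANTCA of 8.84% against 8.97%, and the interferon response element of 2.04% against 3.99%. None of the 27 matched genes that rose or fell held TGATGNAA or the interferon response element in these windows, and TGANTCA was found for 2 that fell.

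Levels of the 194 genes ranged widely, from 0.0789 FPKM for the neutral amino acid transporter Slc6a19 to 139 FPKM for the taurine transporter Slc6a6. Levels between genes are given as FPKM (fragments normalised to gene length and library total). Over the 4 libraries the mean FPKM was 10 or more for 51 genes, from 1 to under 10 for 104 and under 1 for 39. Slc6a6 stood at 139 and 137 FPKM in the RANKL+DI libraries and 141 and 140 FPKM in the RANKL+vehicle libraries. In CPM, the scale that goes with the test, the order was the reverse, at 1567 and 1537 CPM against 1471 and 1463 CPM. Its log2 fold change of 0.08 ± 0.03 was not called (edgeR, adjusted p = 0.143). Slc25a5, an ADP/ATP carrier of the mitochondrial inner membrane, followed with 119 and 117 FPKM against 147 and 138 FPKM. The RANKL+DI libraries thus lay below the RANKL+vehicle libraries for Slc25a5, but its log2 fold change of -0.17 ± 0.04 (SE) did not pass the test (edgeR, adjusted p = 0.0590). Next in mean level came the fatty acid transport protein Slc27a1 (77.8 FPKM), the zinc importer Slc39a1 (69.7 FPKM), the ADP/ATP carrier Slc25a4 (62.3 FPKM) and the glutamine and neutral amino acid transporter Slc38a2 (52.1 FPKM). The 10 highest genes held 36.1% of the summed FPKM of the 194. Near-identical copies could share reads with Slc25a5 (Gm5529 and Gm5560 over 72.3% and 71.5% of its transcript) and with Slc39a1 (its pseudogene, over 41.2%).

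**Figure D1:**
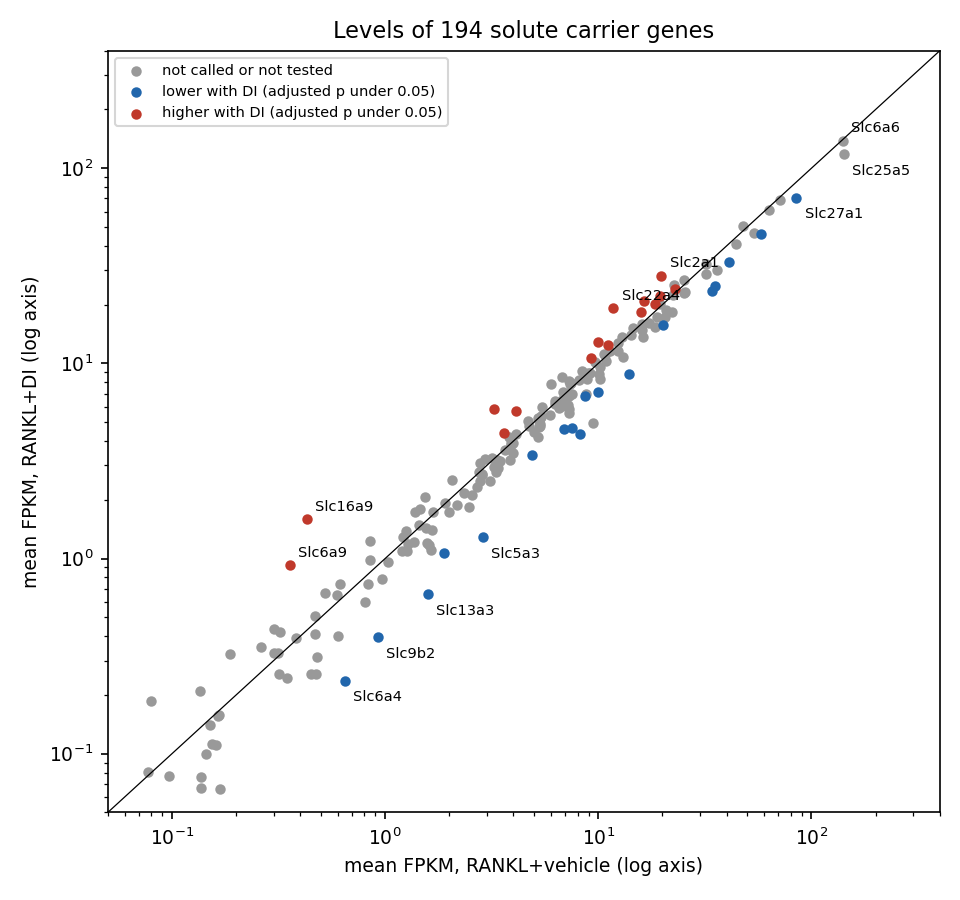
Mean FPKM of the 194 solute carrier genes in the RANKL+vehicle libraries (x axis, log scale) and in the RANKL+DI libraries (y axis, log scale), 1 point a gene, with the line of equal level. Slc6a6 and Slc25a5 lie at the upper end, Slc16a9 and Slc6a9 lie above the line, and Slc6a4, Slc9b2, Slc13a3 and Slc5a3 lie below it.

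The comparison of RANKL+DI with RANKL+vehicle asked which transport systems changed when DI was present during RANKL stimulation. Of the 193 solute carriers with enough counts to test (all but Slc25a47, with 7 and 8 counts against 8 and 17), 33 passed an adjusted p of 0.05 in edgeR's quasi-likelihood test, which is 17.1% against 14.8% of all 12590 genes tested. They divided into 15 that rose (7.77%, against 7.14% of all genes) and 18 that fell (9.33%, against 7.7% of all genes). The median log2 fold change of the 193 was 0.02, and that of all genes tested 0.00. The shares called of these 193 genes, without the 11 set aside, thus lay close to the background in either direction. Scaled by library size only, which moved the median of all genes to -0.10, 8 rose and 30 fell. Without RANKL+vehicle replicate 1 17 genes were called, and without RANKL+DI replicate 2 21.

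Most changes were small. Of the 33 genes, 19 changed by less than 0.5 on the log2 scale, and 6 (3.11% of the 193, against 1.49% of all genes) changed by more than 1: the monocarboxylate transporter family member Slc16a9 and the glycine transporter Slc6a9 rose, and the serotonin transporter Slc6a4, the dicarboxylate transporter Slc13a3, the sodium/proton exchanger Slc9b2 and the myo-inositol transporter Slc5a3 fell. The groups of libraries did not overlap for 121 of the 193 genes (62.7%, against 58.6% of all genes), the 33 called genes among them. In the deposited coordinates (GRCm38) Slc16a9 lies at chr10:70245100-70285968 and Slc6a9 at chr4:117834506-117875198, both on the plus strand. Slc6a4 lies at chr11:76998603-77032340 (plus), Slc13a3 at chr2:165405028-165473230 (minus), Slc9b2 at chr3:135307700-135345387 (plus) and Slc5a3 at chr16:92058322-92087473 (plus). The direction of the 33 was the same under each of 13 other settings, and 15 of them stayed past the threshold under every setting but the test against a minimum log2 change of 0.5.

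**Figure D2:**
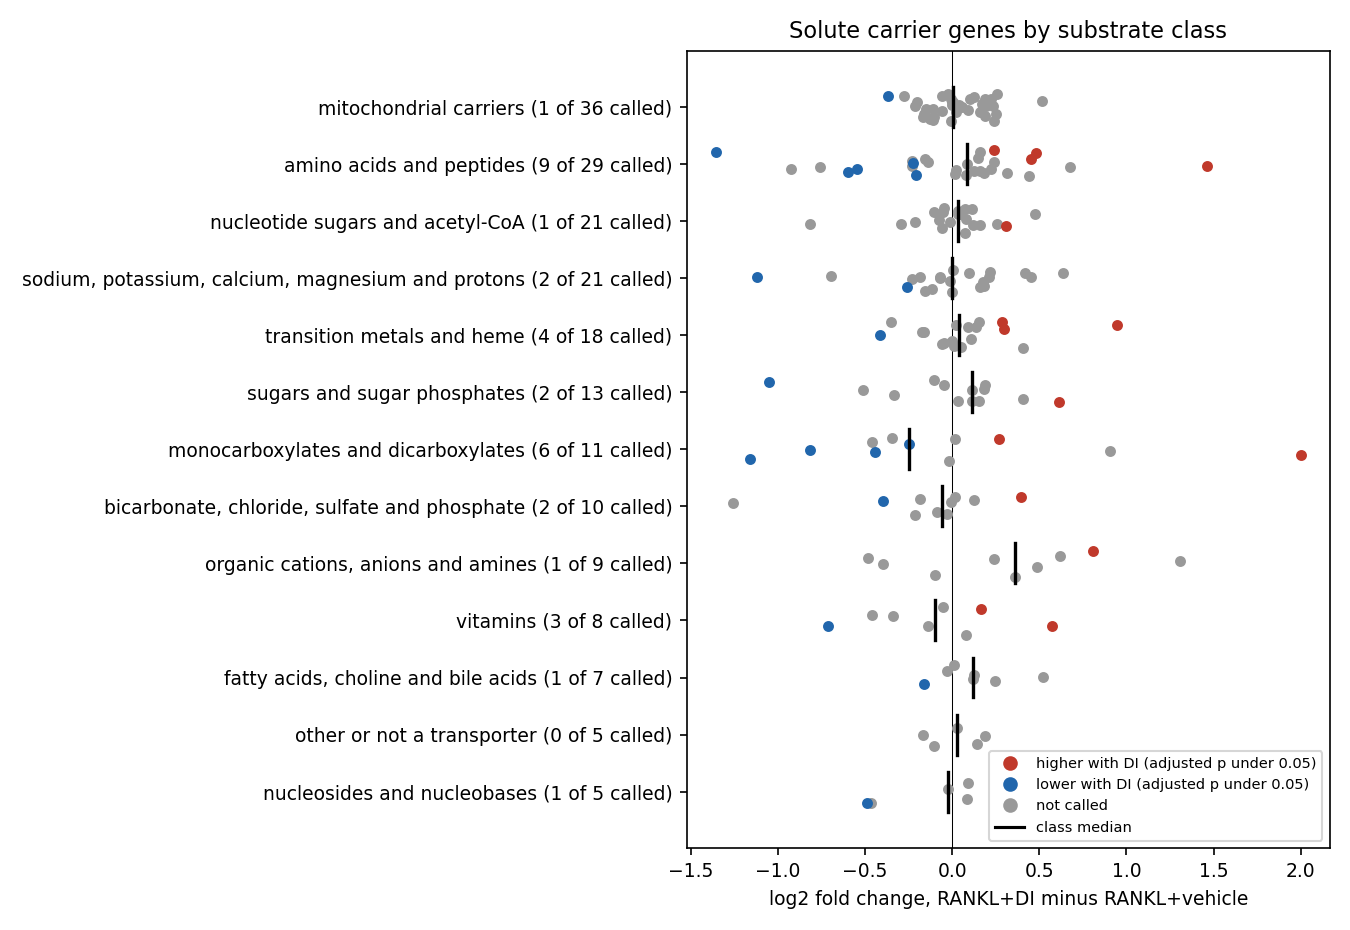
Log2 fold change (RANKL+DI minus RANKL+vehicle) of the 193 tested solute carriers, 1 point a gene, in rows by substrate class with the class median as a black bar. The points of the mitochondrial carriers run from -0.37 to 0.51, with 1 of 36 called. Of the 11 monocarboxylate and dicarboxylate carriers 6 were called, in either direction.

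The carriers of monocarboxylates and dicarboxylates held the highest share of called genes of any substrate class, 6 of 11 (54.5%), with 2 higher and 4 lower. Slc16a1 (MCT1, a proton-coupled lactate and pyruvate carrier) was measured at 21.1 and 18.6 CPM in the RANKL+DI libraries and at 35.5 and 34.5 CPM in the RANKL+vehicle libraries. Both RANKL+DI libraries lay well below both others, and its log2 fold change was -0.82 ± 0.09 (edgeR, adjusted p = 0.00376). Slc16a3 (MCT4, the lactate exporter of glycolytic cells) was measured at 117 and 109 CPM against 91.3 and 96.9 CPM. It moved the other way, with a log2 fold change of 0.27 ± 0.06 (edgeR, adjusted p = 0.0343), though the call was lost when RANKL+DI replicate 1, RANKL+vehicle replicate 1 or RANKL+vehicle replicate 2 was left out (adjusted p = 0.122, 0.131 and 0.0657 in edgeR) and with library size only (0.106).

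Slc13a3 (NaDC3) takes up succinate and other dicarboxylates with sodium. It was measured at 5.88 and 4.59 CPM with DI and at 12.7 and 10.6 CPM without, so that both treated libraries were at less than the lower vehicle value, and it fell by 1.16 ± 0.17 on the log2 scale (edgeR, adjusted p = 0.00986). The other sodium-coupled dicarboxylate carrier of the class, Slc13a2 (NaDC1), was near the count minimum with 14 and 15 counts against 5 and 10 and was not called (edgeR, adjusted p = 0.273). Slc16a9 (MCT9), which has been linked to carnitine transport, had the highest fold change of the 193 genes. Its levels were 5.83 and 8.05 CPM with DI against 1.40 and 2.10 CPM, a log2 fold change of 2.0 ± 0.27 (edgeR, adjusted p = 0.00740). The treated libraries differed from each other by more CPM than the vehicle libraries did, though not by a larger ratio. Both treated libraries were above the vehicle libraries. Gm7097 and Gm9877 lie on the opposite strand over 12.7% and 10.8% of the exons of Slc16a9. Gm7097 had no count in any library, and the strand setting of the counting is not given in the sources used here.

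Slc16a10 (TAT1), which carries aromatic amino acids rather than carboxylates, was measured at 129 and 133 CPM with DI and at 175 and 181 CPM without (log2 fold change -0.44 ± 0.04, edgeR, adjusted p = 0.00295). Slc16a6 (MCT7) lay at 41.8 and 42.3 CPM against 50.4 and 49.6 CPM, and its call (log2 fold change -0.25 ± 0.06, edgeR, adjusted p = 0.0464) was lost whichever library was left out, with adjusted p-values between 0.114 and 0.154, and also without the filter on low counts (0.0571) and in the DESeq2 Wald test (0.123). Amz2 overlaps 21.5% of its exons on the opposite strand and was not called (log2 fold change 0.01, edgeR, adjusted p = 0.946). The summed level of the 11 genes was 55.8 and 55.6 FPKM with DI against 70.4 and 71.6 FPKM. Most of that difference came from Slc16a10, at 23.1 and 23.8 FPKM against 33.6 and 34.7 FPKM. In sums of CPM the ratio of RANKL+DI to RANKL+vehicle for the class was 0.869 in place of 0.784. Of the chaperones that bring monocarboxylate carriers to the membrane, Emb was higher with DI, at 439 and 443 CPM against 308 and 306 CPM (log2 fold change 0.52 ± 0.04, edgeR, adjusted p = 9.16e-04). Bsg, at 203 and 186 CPM against 190 and 185 CPM, was not called (adjusted p = 0.582 in edgeR).

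Among the 13 carriers of sugars and sugar phosphates 2 were called (15.4%), in opposite directions. Slc2a1 (GLUT1, the basal glucose transporter) was measured at 153 and 152 CPM in the RANKL+DI libraries and at 96.5 and 103 CPM in the RANKL+vehicle libraries. The treated libraries lay close together and above both vehicle libraries, with a log2 fold change of 0.62 ± 0.05 and the smallest p-value of the 193 genes (edgeR, adjusted p = 0.00156). Slc5a3 (SMIT1, which takes up the osmolyte myo-inositol with sodium) was measured at 14.6 and 16.1 CPM against 32.8 and 30.7 CPM. It fell by 1.05 ± 0.09 on the log2 scale (edgeR, adjusted p = 0.00209). Mrps6 shares 1.46% of its exon bases on the same strand and was lower as well (log2 fold change -0.48, edgeR, adjusted p = 0.0166). The remaining 11 were not called, among them Slc2a3 (-0.34), Slc2a6 (0.03), Slc2a8 (-0.10) and Slc2a9 (0.15), of the same family as Slc2a1. Slc37a2, a sugar phosphate exchanger of macrophages and the highest of the class by FPKM, stood at 187 and 183 CPM against 185 and 197 CPM.

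Amino acid and peptide carriers were called in 9 of 29 cases (31%), 4 higher and 5 lower. Slc1a5 (ASCT2, a glutamine and neutral amino acid exchanger) was at 63.7 and 63.1 CPM with DI against 94.2 and 91.1 CPM, and fell by 0.55 ± 0.05 on the log2 scale (edgeR, adjusted p = 0.00295). Slc7a1 (CAT1, the arginine and lysine transporter) was at 58.6 and 62.1 CPM against 90.1 and 92.3 CPM, and fell by 0.60 ± 0.06 on the log2 scale (edgeR, adjusted p = 0.00295). The level with DI was 31.6% lower for Slc1a5 and 33.8% lower for Slc7a1, with little spread within a group. Smaller decreases were found for Slc38a2 (SNAT2, log2 fold change -0.23 ± 0.04, edgeR, adjusted p = 0.0135) and Slc7a8 (LAT2, -0.21 ± 0.05, edgeR, adjusted p = 0.0347). Slc6a4, which carries serotonin and not an amino acid, was at 27 and 24 counts against 74 and 55 (log2 fold change -1.35 ± 0.24, edgeR, adjusted p = 0.0172).

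Among the amino acid and peptide carriers that rose, Slc15a3 (a histidine and peptide transporter) was at 163 and 152 CPM with DI against 112 and 118 CPM, a log2 fold change of 0.45 ± 0.06 (edgeR, adjusted p = 0.00517). Slc36a1 (PAT1, a proton-coupled amino acid exporter of the lysosome) was at 96.7 and 100.1 CPM against 74.5 and 66.3 CPM, a log2 fold change of 0.48 ± 0.07 (edgeR, adjusted p = 0.00941). Slc36a4, of the same family, changed less (0.24 ± 0.04, edgeR, adjusted p = 0.0163). Slc6a9 (GlyT1, which takes up glycine), was at 9.26 and 9.44 CPM against 3.81 and 2.94 CPM. It rose by 1.46 ± 0.17 on the log2 scale (edgeR, adjusted p = 0.00431), and the treated libraries were closer to each other than the vehicle libraries. Ccdc24 shares 27.8% of the exon bases of Slc6a9 on the opposite strand, with 16 and 25 counts against 6 and 7. Its log2 fold change was 1.61 ± 0.43 (edgeR, adjusted p = 0.0582), in the same direction as that of Slc6a9. Tmem132a shares 28.1% of the exon bases of Slc15a3 and was not called (log2 fold change 0.24, edgeR, adjusted p = 0.142). As the strand setting is not given, reads in the shared bases cannot be assigned to either gene with certainty.

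In this class 5 calls were left without RANKL+DI replicate 2 and 5 without RANKL+vehicle replicate 1. Slc38a2 lost its call without RANKL+DI replicate 2 or either vehicle library (adjusted p = 0.0501, 0.0521 and 0.0530 in edgeR), and Slc6a4 without RANKL+DI replicate 2 or RANKL+vehicle replicate 1 (0.0617 and 0.0893). Slc36a4 and Slc7a8 lost theirs whichever library was left out (adjusted p between 0.0516 and 0.143), and Slc36a4 also with library size only (0.0730). Slc1a4 (ASCT1), often named with Slc1a5 and Slc7a1 among the targets of the stress factor ATF4, was at 50 and 34 counts against 34 and 40 and was not called (edgeR, adjusted p = 0.785). Its log2 fold change of 0.16 turned negative without RANKL+DI replicate 1 (-0.21) or without RANKL+vehicle replicate 1 (-0.03). The creatine transporter Slc6a8 followed the replicate number rather than the treatment, with 323 and 224 CPM against 286 and 195 CPM.

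**Figure D3:**
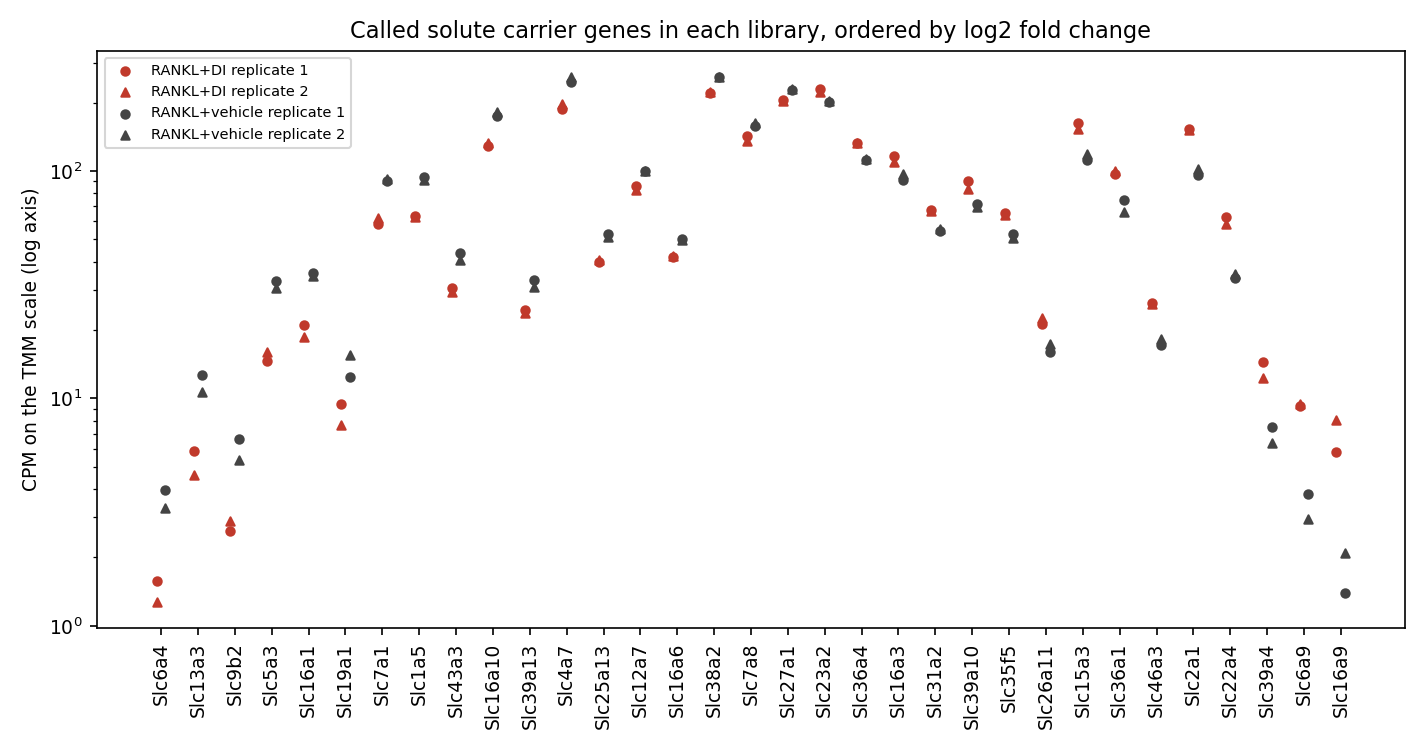
CPM (log axis) of the 33 called solute carriers in each of the 4 libraries, ordered from the lowest to the highest log2 fold change, with circles for replicate 1, triangles for replicate 2, red for RANKL+DI and dark grey for RANKL+vehicle. No gene shows an overlap of the groups, and the distance between them is widest at both ends, from Slc6a4 to Slc16a9.

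Organic cation, anion and amine carriers had 1 call in 9 genes (11.1%), Slc22a4 (OCTN1, the ergothioneine and carnitine transporter). It was measured at 63.0 and 58.6 CPM with DI against 34 and 35.4 CPM. Both treated libraries were far above both vehicle libraries, with a log2 fold change of 0.81 ± 0.07 (edgeR, adjusted p = 0.00199). The class sum, in which Slc22a4 was the highest gene, was 27.4 and 25.7 FPKM against 19.4 and 19 FPKM. The median log2 fold change of the class was 0.36, but 8 of its genes were not called, and their levels were low, at 0.133 to 3.73 FPKM. Slc22a5 (OCTN2, the carnitine transporter) lies on the same chromosome as Slc22a4, with Slc22a21 between them. The log2 fold change was -0.10 for Slc22a5 (edgeR, adjusted p = 0.547) and -0.48 for Slc22a21 (edgeR, adjusted p = 0.247). Slc22a5 and Slc22a21 could share reads, as 27.1% of the Slc22a5 transcript has a near-identical match in Slc22a21.

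Of 21 carriers of sodium, potassium, calcium, magnesium and protons, 2 fell (9.52%) and none rose. Slc9b2 (NHA2), a sodium/proton exchanger that is induced when osteoclasts form, was at 2.62 and 2.88 CPM with DI against 6.60 and 5.34 CPM. Both treated libraries lay at less than the lower vehicle value (log2 fold change -1.12 ± 0.19, edgeR, adjusted p = 0.0149). Slc12a7 (KCC4, a potassium-chloride cotransporter) was at 85.6 and 82.1 CPM against 100.2 and 100.3 CPM (log2 fold change -0.26 ± 0.05, edgeR, adjusted p = 0.0247). Without RANKL+vehicle replicate 1 neither was called (adjusted p = 0.0759 and 0.0812 in edgeR), and Slc12a7 was not called without any of the other libraries either (0.0506 to 0.0994). The sodium/calcium exchanger Slc8a1 was at 24.3 and 27.7 CPM against 17.5 and 20.6 CPM and did not pass (edgeR, adjusted p = 0.0582). None of the 3 kinases that regulate cation-chloride cotransporters (Wnk1, Stk39 and Oxsr1) passed edgeR's test, and Oxsr1 had an unadjusted p of 0.0300.

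Carriers of bicarbonate, chloride, sulfate and phosphate had 2 calls among 10 (20.0%). The 10 genes include Slc17a8 and Slc17a9, placed here by the number of their family and not by their own substrates, and neither was called. Slc4a7 (NBCn1, a sodium bicarbonate cotransporter that regulates pH in osteoclasts) was at 187 and 196 CPM with DI against 246 and 258 CPM. The groups were well apart, and it fell by 0.40 ± 0.05 on the log2 scale (edgeR, adjusted p = 0.00483). The sulfate transporter Slc26a11 was at 21.2 and 22.6 CPM against 16 and 17.4 CPM (log2 fold change 0.39 ± 0.10, edgeR, adjusted p = 0.0460). Its call was lost whichever library was left out (adjusted p between 0.0796 and 0.161 in edgeR), with library size only (0.0901) and in the DESeq2 Wald test (0.100). Slc4a2, the chloride/bicarbonate exchanger that osteoclasts need for acid secretion, was at 105 and 113 CPM against 117 and 115 CPM and did not pass (edgeR, adjusted p = 0.329), nor did the phosphate transporter Slc20a1 at 95.3 and 77.2 CPM against 90.9 and 104.9 CPM (edgeR, adjusted p = 0.354). The summed level of the class was 60.3 and 61.3 FPKM against 73.1 and 77.1 FPKM. Most of that difference came from Slc4a7, at 24.29 and 25.65 FPKM against 34.54 and 36.14 FPKM. In sums of CPM the ratio of RANKL+DI to RANKL+vehicle for the class was 0.861 in place of 0.81.

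Transition metal carriers were called in 4 of 18 cases (22.2%), with 3 higher and 1 lower. The 18 genes include the pseudogene Slc39a1-ps, placed here by its symbol, which was not called. Slc39a4 (ZIP4, a zinc importer) was at 14.5 and 12.3 CPM with DI against 7.52 and 6.36 CPM. Both treated libraries were above both vehicle libraries, and the log2 fold change was 0.95 ± 0.15 (edgeR, adjusted p = 0.0115). Slc39a10 (ZIP10, zinc import) and Slc31a2 (CTR2, linked to copper) rose by 0.30 ± 0.06 and 0.29 ± 0.06 on the log2 scale (edgeR, adjusted p = 0.0293 and 0.0256), and Slc39a13 (ZIP13, an intracellular zinc transporter) fell by 0.41 ± 0.08 (edgeR, adjusted p = 0.0192). Slc39a13 lost its call without RANKL+DI replicate 2 or RANKL+vehicle replicate 1 (adjusted p = 0.0770 and 0.0842 in edgeR), Slc39a10 without RANKL+DI replicate 1 or either vehicle library (0.0766 to 0.115) and Slc31a2 whichever library was left out (0.0698 to 0.0883). With library size only, Slc39a10 and Slc31a2 were not called either (0.0788 and 0.0778 in edgeR). The class had 1 call without RANKL+vehicle replicate 1 and 2 with any of the other libraries left out.

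Vitamin carriers were called in 3 of 8 cases (37.5%). Slc19a1 (the reduced folate carrier) was at 9.44 and 7.68 CPM with DI against 12.5 and 15.6 CPM, and fell by 0.71 ± 0.17 on the log2 scale (edgeR, adjusted p = 0.0399). The spread within each group was wide, and the call was lost without RANKL+DI replicate 2 (adjusted p = 0.111) or RANKL+vehicle replicate 2 (0.145). Slc46a3, a lysosomal carrier placed here by its family, which includes the folate transporter Slc46a1, was at 26.4 and 26.1 CPM against 17.1 and 18.2 CPM (log2 fold change 0.57 ± 0.08, edgeR, adjusted p = 0.00943). Slc23a2 (SVCT2, the ascorbate transporter) was at 229 and 223 CPM against 201 and 202 CPM, a log2 fold change of 0.16 ± 0.04 (edgeR, adjusted p = 0.0456). That call was lost whichever library was left out (adjusted p between 0.0904 and 0.168 in edgeR), with library size only (0.339), with upper quartile factors (0.0528) and in the DESeq2 Wald test (0.0773). Without RANKL+DI replicate 2, 1 gene of the class was called.

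Mitochondrial carriers were the largest class, with 37 genes and 24.9% of the summed FPKM of the 194, and had 1 call among 36 tested (2.78%). Slc25a13 (citrin, an aspartate/glutamate carrier of the malate-aspartate shuttle) was at 39.9 and 40.6 CPM with DI against 52.7 and 51.2 CPM. The groups were apart and the spread within them small, with a log2 fold change of -0.37 ± 0.06 (edgeR, adjusted p = 0.0150), though without RANKL+DI replicate 1 or RANKL+vehicle replicate 1 the adjusted p was 0.0509 and 0.0659. Its counterpart Slc25a12 had a log2 fold change of 0.19 (edgeR, adjusted p = 0.0778). The carriers of tricarboxylates and dicarboxylates were not called: Slc25a1 (citrate) had 0.19 ± 0.09 (edgeR, adjusted p = 0.226), Slc25a10 (dicarboxylates) -0.13 ± 0.07 (0.254) and Slc25a11 (2-oxoglutarate) -0.06 ± 0.05 (0.505). The log2 fold changes of the 36 genes ran from -0.37 to 0.51 with a median of 0.00.

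The Golgi and endoplasmic reticulum carriers of nucleotide sugars and acetyl-CoA also had 1 call, among 21 genes (4.76%). It was Slc35f5, a member without a settled substrate, at 65.1 and 63.9 CPM with DI against 52.9 and 51 CPM (log2 fold change 0.31 ± 0.06, edgeR, adjusted p = 0.0224). It was not called with any library left out (adjusted p between 0.0555 and 0.0890) or with library size only (0.0618). Slc35e1, the highest gene of the class by FPKM, was at 113 and 110.0 CPM against 103 and 103 CPM (edgeR, adjusted p = 0.167). Slc35a4 differed between the vehicle libraries, at 47.5 and 107.8 CPM, with 46.1 and 41.9 CPM in the treated libraries (edgeR, adjusted p = 0.185).

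Nucleoside and nucleobase carriers had 1 call among 5, Slc43a3 (a purine nucleobase transporter), at 30.6 and 29.5 CPM against 43.8 and 40.5 CPM. It fell by 0.49 ± 0.07 on the log2 scale (edgeR, adjusted p = 0.00958), and without RANKL+vehicle replicate 1 the adjusted p was 0.0518. Slc29a3, an equilibrative nucleoside transporter of endosomes and the highest of the class, was at 152 and 151 CPM against 142 and 145 CPM (edgeR, adjusted p = 0.237). Carriers of fatty acids, choline and bile acids had 1 call among 7, Slc27a1 (FATP1), at 206 and 204 CPM against 228 and 230 CPM (log2 fold change -0.16 ± 0.04, edgeR, adjusted p = 0.0418). Its adjusted p was 0.109 to 0.161 with 1 library left out in edgeR and 0.0819 in the DESeq2 Wald test. The 5 other genes, which included the scaffold protein Slc9a3r1 at 99.7 and 102 CPM against 91.3 and 85.8 CPM, had no call in edgeR, and Slc9a3r1 alone had an unadjusted p under 0.05 (0.0136).

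**Figure D4:**
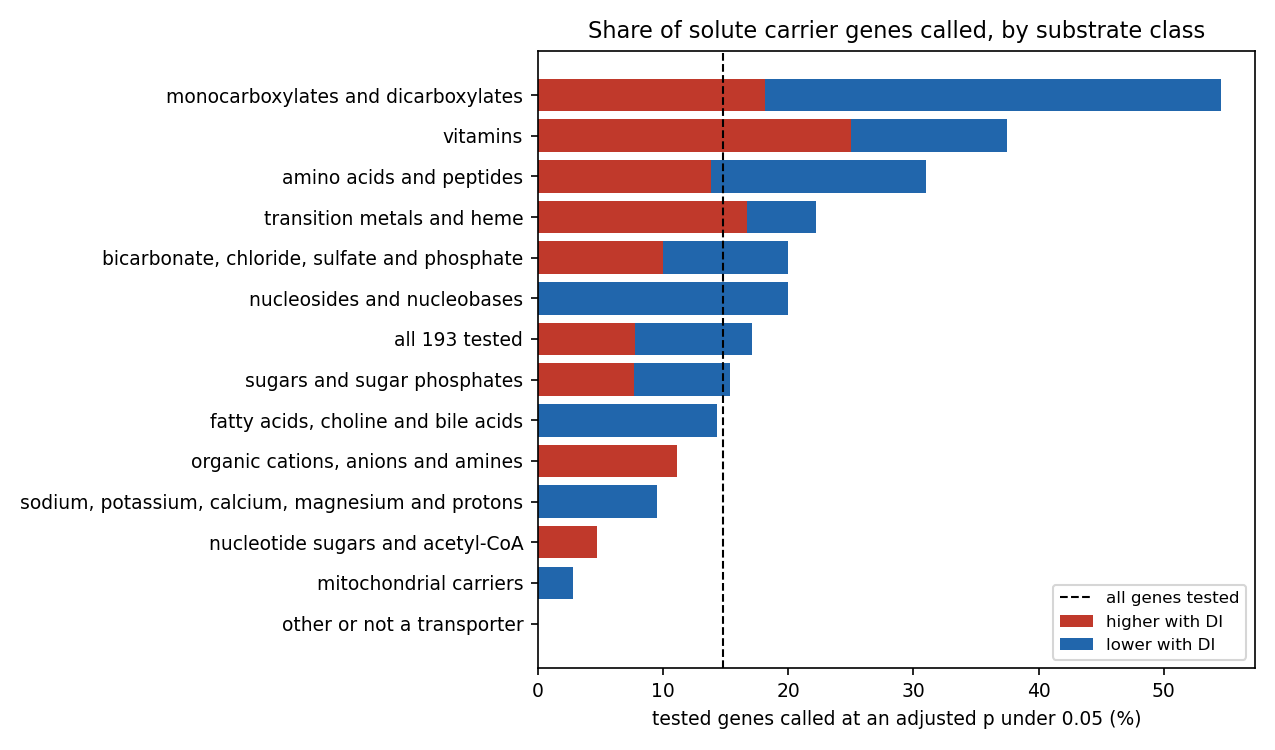
Share of the tested solute carriers called at an adjusted p under 0.05, by substrate class, divided into genes higher with DI (red) and lower with DI (blue), with the share of all genes tested (14.8%) as a dashed line. There are 7 classes above the line, from 15.4% for sugars to 54.5% for monocarboxylates and dicarboxylates, and mitochondrial carriers lie far below it at 2.78%, while several classes hold under 10 genes.

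Further carriers with other symbols were listed separately: the mitochondrial Ucp2, Mtch1, Mtch2, Mpc1, Mpc2 and Letm1, the phosphate exporter Xpr1, 4 Slco organic anion transporters and Mfsd2a. Of these 12 genes 9 were tested, and 1 was called, Slco4a1, lower with DI (log2 fold change -0.30, edgeR, adjusted p = 0.0264). Of the 11 Slc genes that the selection set aside, 6 rose and 1 fell (edgeR), where 7.14% of all genes rose and 7.7% fell. The shares given above for the solute carriers do not include these 11.

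Markers of the cells in the culture moved with these changes. Among osteoclast markers 5 of 6 tested fell, none rose, and Calcr, the calcitonin receptor of mature osteoclasts, had no count. Their summed level was 169 to 181 CPM with DI and 297 to 311 CPM without. Of 7 macrophage markers, read from 8 entries because Itgam stands under 2 identifiers, 5 entries rose and 1 (Fcgr1) fell. The 8 entries summed to 28580 and 29370 CPM against 23190 and 22350 CPM. Most of each sum was Lyz2 alone, at 22770 and 23790 CPM against 18290 and 17630 CPM. Fewer cells of a type and less RNA per cell cannot be told apart in these bulk libraries, and the part of this shift in the solute carrier changes was not tested. Markers of other cells were low. B cell markers summed to 0.117 to 0.600 CPM, T and NK cell markers to at most 0.117 CPM with 3 of 4 at 0, neutrophil markers to 5.21 to 7.81 CPM and mast cell and basophil markers to at most 0.0600 CPM. The 4 erythroid markers were at 0, and stromal markers summed to 37.2 to 45 CPM, with none of the 5 neutrophil and stromal genes tested called in edgeR (the smallest unadjusted p was 0.0475, for S100a8).

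**Figure D5:**
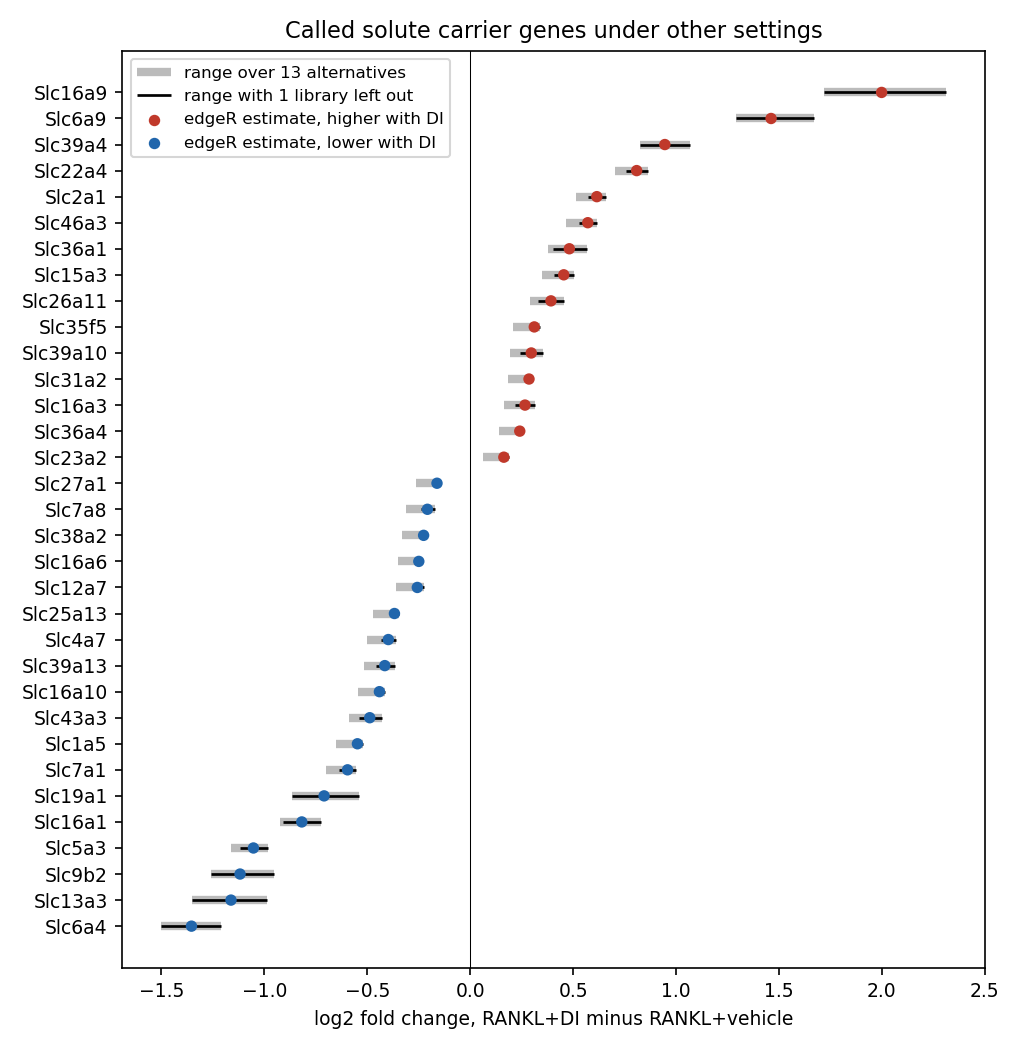
Log2 fold change of the 33 called solute carriers (points, red for higher and blue for lower with DI), with the range over 13 other settings (grey bars) and the range with 1 library left out (black lines). No range crosses 0, and the widest range, that of Slc16a9, runs from 1.72 to 2.31.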

How the data were processed

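RNA was measured in 4 libraries of mouse BMMs, 2 with RANKL and DI and 2 with RANKL and DMSO, grouped by their labels. For each gene and library the authors deposited a raw read count that was not normalized. FPKM values, scaled by gene length and library total, were likewise deposited by the authors. A second deposited table repeats these values and was not used, and pathway columns were read only to apply the selection. The submitters' processing notes name the builds GRCm38 and mm10. The aligner, the counting program and its strand setting are not given in the sources used here.

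Counts were tested in R 4.3.3 with edgeR 4.0.16 (default filter on low counts, TMM factors, quasi-likelihood fit with the treatment as its only term), with Benjamini-Hochberg adjustment over the 12590 genes that passed the filter. A gene is called at an adjusted p under 0.05. CPM values are on the TMM scale. Standard errors were derived from each fold change and its F statistic. Depth was 16085692 to 19403480 counts per library, and the floor of 3 counts covers counting error only. Common variation between libraries (BCV) was 0.0905, on 2 residual degrees of freedom. The fit was tested on simulated data.

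The genes, the 13 substrate classes, the marker and partner lists and the rule for named genes were chosen with earlier results of these data known. The substrate classes follow the number of the Slc family and general knowledge. Named genes are the 10 highest and the 10 lowest fold changes among called genes with an average log2 CPM over 1, the 5 smallest p-values, the smallest p and the highest FPKM of each class, genes at or under 3 counts in both libraries of a group (there were none), genes linked in general knowledge to ATF4, to glucose and lactate, to osteoclasts and to dicarboxylates, and the called genes of classes with 5 or fewer of them. Slc16a6, Slc36a4 and Slc7a8, and the uncalled genes named beside them, were added after their values were seen. The result of 1 of the partner lists is not reported here.

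Alternatives were DESeq2 size factors, upper quartile factors, library size only, no filter, a minimum of 10 counts per library, limma-voom (limma 3.58.1), the Wald test of DESeq2 1.42.0, glmTreat with a minimum log2 change of 0.5, the replicate number as a block, each library left out in turn, a minimum of 400 counts for the selection, and summed CPM in place of FPKM. Gene positions and exon overlaps were compared with GENCODE M21, which gave the same chromosome for all 194 genes and the same ends for 146, and copies were sought with BLAST+ 2.17.0 (identity of 95% or more across 20% or more of a transcript). Promoter sequences are from RefSeq (GRCm38.p6), and protein sequences were not used here.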

Additional observations from a re-analysis of the deposited data

How the results depend on the processing

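With 2 libraries a group, the calls rest on small spreads. Over all genes 1868 were called, against 145 with glmTreat and 1087 to 1394 with 1 library left out. Of the solute carriers 33 were called (4 with glmTreat, 17 to 23 with 1 library left out). Higher calls numbered 15 (8 with library size only, 3 with glmTreat, 8 to 11 with 1 library left out) and lower calls 18 (30 with library size only, 1 with glmTreat, 9 to 14 with 1 library left out). Their median log2 fold change of 0.02 became -0.0848 with library size only and 0.00526 to 0.0512 with 1 library left out. With 400 counts in place of 40 as the minimum, 30 were called. In the sums of CPM in place of FPKM, the ratio of RANKL+DI to RANKL+vehicle over the 194 genes was 1.01 in place of 0.935. The cause of these shifts was not tested, beyond the fewer libraries or the higher minimum that the settings impose.

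By class, glmTreat left 1 call each for amino acids, carboxylates and sugars and 0 each for bicarbonate and related anions, fatty acids, mitochondrial carriers, nucleosides, nucleotide sugars, sodium and related cations, metals and vitamins. Library size only gave 4 mitochondrial calls. Without the filter there were 2 calls each for fatty acids, mitochondrial carriers and organic cations and 3 for nucleotide sugars. At least 10 counts in every library gave 3 for nucleotide sugars, and DESeq2 size factors, the DESeq2 Wald test and limma-voom gave 2. The Wald test also gave 1 for bicarbonate and 0 for fatty acids. The 10-count minimum and library size only each left 3 for sodium. With 1 library left out, calls numbered 5 to 7 for amino acids, 1 to 1 for bicarbonate, 0 to 0 for fatty acids, 0 to 2 for mitochondrial carriers, 4 to 5 for carboxylates, 0 to 1 for nucleosides and for nucleotide sugars, 0 to 2 for sodium, 2 to 3 for sugars, 1 to 2 for metals and 1 to 2 for vitamins.

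The replicate number did not pair the libraries (correlation of deviations -0.0302 for either number). With it as a block 1389 genes and 25 solute carriers were called, with 1 for bicarbonate, 0 for fatty acids and 1 for vitamins. Under the block Slc7a8, Slc12a7, Slc16a3, Slc16a6, Slc19a1, Slc23a2, Slc26a11, Slc27a1 and Slc31a2 lost their calls (adjusted p between 0.0510 and 0.0856 in edgeR). Of the 33 called genes, Slc5a3, Slc22a4, Slc6a9 and Slc16a9 kept the call under all 13 alternatives, and 15 kept it under all but glmTreat. No called gene reversed. Among uncalled genes, the log2 fold change reversed for Slc1a4 (-0.213 without RANKL+DI replicate 1 and -0.0315 without RANKL+vehicle replicate 1, in a range of -0.213 to 0.470 with 1 library left out), for Slc29a3 (-0.0197), Slc39a1 (-0.0513) and Slc6a6 (-0.0223) with library size only, and for Slc37a2 (0.000817 without RANKL+vehicle replicate 2, in a range of -0.0898 to 0.000817).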
